A study of Mus musculus with 70 samples.

Results

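The effect of losing the short isoform of Capicua was compared between 2 brain regions. For each gene, the difference between Cic-S-KO and WT in cortex was set against the same difference in cerebellum, a contrast called the interaction here. It used 30 of the series' 70 samples, chosen by their labels of tissue and genotype: 8 WT and 7 Cic-S-KO cortex samples, and 8 WT and 7 Cic-S-KO cerebellum samples, all from mice at 12 weeks of age and all labelled batch 2. The other 40 samples, not in the contrast, were P6 lung and the brain of Cic-L-KO mice, which lack the long isoform. WT animals were littermates pooled from both knockout lines, so neither line could be compared with its own littermates alone. The labels name no allele, Cre driver or sex. They also do not state that samples of a group came from separate animals, so p-values measure the spread between these samples.

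Capicua, encoded by Cic, is a DNA-binding repressor that sits on short octamer motifs in promoters and enhancers and holds down genes that growth factor signalling through the ERK kinases releases. It is made as a short and a long isoform that share the DNA-binding region and differ at the amino end. In the brain it works in complexes with ATXN1 and ATXN1L, and ATXN1 with an expanded glutamine tract damages Purkinje cells of the cerebellum. Cortex and cerebellum are built from different neurons: layered excitatory cells and several interneuron types in cortex, and in cerebellum a very large number of small granule neurons that excite the few large Purkinje cells.

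Total RNA was selected for polyadenylated transcripts, and the deposited values were reads per gene, scaled here to CPM, the count relative to library size after TMM normalisation. The 30 libraries held 20440799 to 32548951 reads. The 2 Cic-S-KO samples titled replicate 6, whose library names are CTX-SKO-7 and CB-SKO-7, each had the highest score on 1 principal component of their region. Numbers of libraries here are the replicate numbers of the titles, so these are called the libraries numbered 6. The cerebellar one had a score of 46.7 on the first principal component of cerebellum (19.3% of the variance), where WT replicate 6 lay at the other end at -43. The cortical one had 37.3 on the second component of cortex (15.5%). Genotypes partly separated on that component, with WT at -31.7 to 7.07 and Cic-S-KO at -11.3 to 37.3. On the first component of cortex (17.5%) the same library had -7.93, and Cic-S-KO replicates 3 (-30.1) and 4 (34.1) were the extremes. Main results are therefore also given without both. Samples with the same genotype and number had matching Y-linked expression in 15 of 15 pairs, with 4 of 8 WT and 3 of 7 Cic-S-KO samples of each region expressing Y-linked genes. Regional markers matched the labels: the summed level of 20 granule neuron genes was 2369 to 2646 CPM in cortex and 8242 to 13430 CPM in cerebellum.

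Cic itself was the first gene to check. In cortex it ran from 156 to 178 CPM in WT (median 166) and from 245 to 270.2 CPM in Cic-S-KO (median 259.9). All 7 Cic-S-KO samples lay above all WT samples, with a log2 difference of 0.64 (SE 0.0446, adjusted p = 6.95e-12). In cerebellum it ran from 165 to 203 CPM in WT (median 183) and from 174 to 217 CPM in Cic-S-KO (median 207), where 5 of 7 Cic-S-KO samples lay above the WT range and replicate 6 was the lowest. The cerebellar log2 difference was 0.15 (SE 0.0445, adjusted p = 0.0345), and the interaction was 0.49 (SE 0.0631, adjusted p = 6.71e-05). Counts are summed over the gene (chromosome 7, 25267704 to 25294159 on GRCm38), so they do not show which isoform was missing. With the effect of GC content removed from each library, Cic was no longer past the test in cerebellum, and the cerebellar call held in 21 of 30 fits that each left out 1 library.

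Of 10 genes listed for Capicua and its partners and cofactors, Cic and Ywhab passed the interaction test. Ywhab, an adaptor protein that binds phosphorylated partners, had -0.11 (SE 0.0288, adjusted p = 0.0194) in cortex and 0.05 (SE 0.0289, adjusted p = 0.355) in cerebellum, with an interaction of -0.16 (SE 0.0408, adjusted p = 0.0235) that was not past the test without both libraries numbered 6. Atxn1 and Atxn1l did not pass. Atxn1, whose product recruits Capicua, ran in cortex from 89.7 to 107 CPM in WT (median 99.4) and from 80.7 to 91.9 CPM in Cic-S-KO (median 83.6). In cerebellum Atxn1 ran from 38.3 to 55.2 CPM in WT (median 48.2) and from 35.1 to 45.1 CPM in Cic-S-KO (median 42.4). The groups overlapped in both regions, although 6 of 7 cortical Cic-S-KO samples were below the WT range. The log2 differences were -0.22 (SE 0.0616, adjusted p = 0.0351) in cortex and -0.22 (SE 0.0634, adjusted p = 0.0267) in cerebellum, and the interaction was 0.00 (95% interval -0.18 to 0.18, adjusted p = 0.993). Exons of Atxn1 overlap those of Gmpr on the other strand, and whether counting used strand is not stated, so its counts may hold reads of both. Atxn1l had an interaction of -0.07 (SE 0.0618, adjusted p = 0.565). Of 16 genes widely described as Capicua targets, such as the PEA3 factors and the Sprouty and Spred inhibitors of ERK signalling, 0 passed the interaction test, and 1 (Shc3, an adaptor of receptor tyrosine kinases, higher) passed in cerebellum and 0 in cortex.

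Over 17430 genes with enough counts, 644 (3.69%) passed the interaction test at an adjusted p under 0.05 (edgeR's quasi-likelihood test with Benjamini-Hochberg adjustment). The Cic-S-KO effect was more positive in cortex for 357 of them (2.05%) and more negative for 287 (1.65%). That split depended on the scaling: with RLE factors 278 of 651 calls (42.7%) were more positive in cortex, and DESeq2 gave 444 of 1047 (42.4%). Within regions, 740 genes (4.25%) passed in cortex, 432 higher (2.48%) and 308 lower (1.77%), and 1210 (6.94%) in cerebellum, 620 higher (3.56%) and 590 lower (3.38%). The sample ranges of Cic-S-KO and WT were apart for 145 genes (0.832%) in cortex and 207 genes (1.19%) in cerebellum. Of 117 genes past the test in both regions, 99 moved the same way and 18 moved in opposite directions.

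The 644 genes fell into 5 classes by their region tests: 18 passed in both regions with opposite signs (0.103% of all genes), 181 passed in cortex only (1.04%), 270 in cerebellum only (1.55%), 4 in both with the same sign (0.0229%) and 171 in neither region alone (0.981%). "Only" here means that the other region did not pass its test. The 95% interval of the effect in that other region lay within 0.25 of 0 on the log2 scale for 114 of the 181 cortex-only genes and 173 of the 270 cerebellum-only genes, and reached further for the rest. Differences were small, with a median absolute interaction of 0.353 over the 644 genes. The estimates pointed in opposite directions in 600 of the 644 (93.2%, against 47.2% of all genes), which an interaction test favours by its construction.

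**Figure D1:**
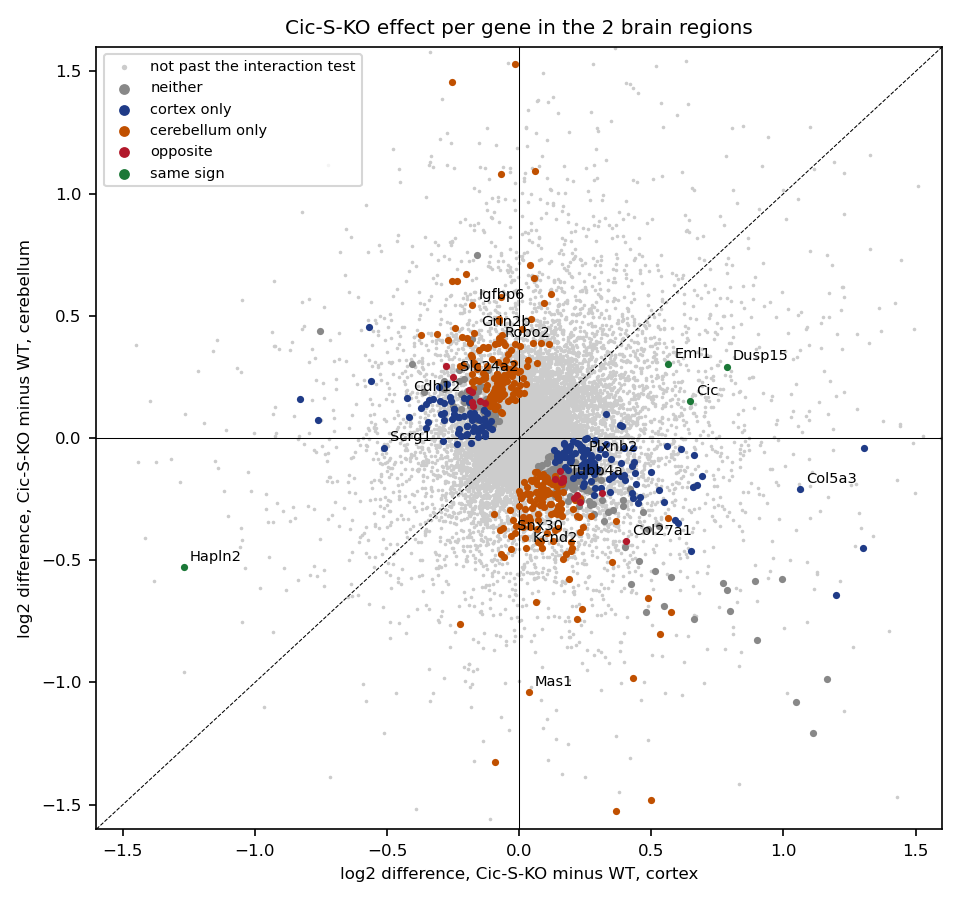
Log2 difference between Cic-S-KO and WT in cortex (x axis) and cerebellum (y axis), 1 point per gene, coloured by class of the interaction test, with the dashed line marking equal effects; 8 genes past the test lie outside the axes, which end at 1.6. Coloured points lie away from the dashed line, most of them close to one of the 2 zero lines, where the estimate of 1 region is near 0, or in the quadrants of opposite sign.

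Without both Cic-S-KO libraries numbered 6, 258 genes passed the interaction test, 252 of them among the 644. The classes then held 7 opposite, 58 cortex-only, 147 cerebellum-only and 3 same-sign genes. Leaving out the cortical library alone gave 334 interaction calls, and leaving out cortical Cic-S-KO replicate 1 gave 832. All 30 leave-one-out fits ranged between these counts.

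**Figure D2:**
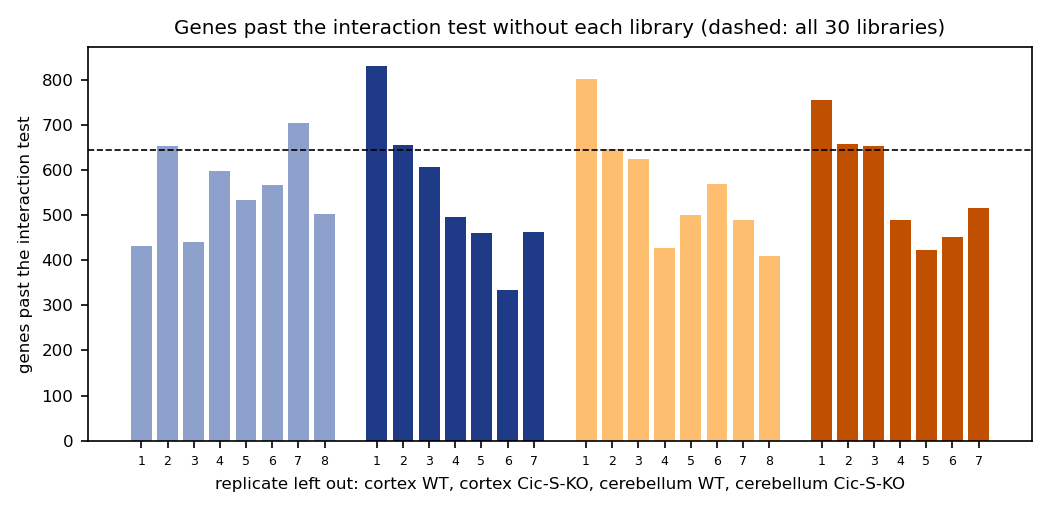
Number of genes past the interaction test (y axis) when 1 of the 30 libraries was left out (x axis, replicate number, in the order cortex WT, cortex Cic-S-KO, cerebellum WT, cerebellum Cic-S-KO), with a dashed line at the 644 of all libraries. The lowest bar is 334 without cortical Cic-S-KO replicate 6 and the highest 832 without cortical Cic-S-KO replicate 1.

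Among the 18 genes with opposite effects, 10 were higher in cortex and lower in cerebellum of Cic-S-KO mice, and 8 the reverse. Slc24a2 (chromosome 4, 86983124 to 87230477) encodes an exchanger that moves calcium out of neurons against sodium and potassium. Cortical levels ran from 740.4 to 930.5 CPM in WT (median 800.1) and from 595 to 733 CPM in Cic-S-KO (median 722). In cerebellum it ran from 447 to 541 CPM in WT (median 483) and from 529 to 637 CPM in Cic-S-KO (median 565). All 7 Cic-S-KO samples were below the WT range in cortex, and 6 of 7 were above it in cerebellum. This gave log2 differences of -0.25 (SE 0.0537, adjusted p = 0.00722) and 0.25 (SE 0.0536, adjusted p = 0.00324), with an interaction of -0.50 (SE 0.0759, adjusted p = 0.000444). WT cortex held more Slc24a2 RNA than WT cerebellum, and the medians of the 2 regions were closer together in Cic-S-KO mice.

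Tubb4a (chromosome 17, 57080066 to 57087782), a beta-tubulin of neurons and oligodendrocytes, moved the other way. It ran in cortex from 809.6 to 917 CPM in WT (median 893) and from 939 to 1037 CPM in Cic-S-KO (median 983). It ran in cerebellum from 1035 to 1205 CPM in WT (median 1109) and from 952 to 1059.9 CPM in Cic-S-KO (median 984). All 7 cortical Cic-S-KO samples exceeded the WT range, and 5 of 7 cerebellar ones lay below it. Cic-S-KO and WT thus differed by log2 values of 0.17 (SE 0.0356, adjusted p = 0.00648) in cortex and -0.18 (SE 0.0357, adjusted p = 0.00204) in cerebellum.

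Of the 18 genes, Col27a1, a chain of fibrillar collagen, had the widest gap between regions. Its level in cortex ran from 4.54 to 6.13 CPM in WT (median 5.44) and from 5.45 to 9.12 CPM in Cic-S-KO (median 6.85). Its level in cerebellum ran from 13.8 to 19.9 CPM in WT (median 16.3) and from 10.9 to 14.3 CPM in Cic-S-KO (median 11.99). The groups overlapped in both regions, with 4 of 7 Cic-S-KO samples above the WT range in cortex and 6 of 7 below it in cerebellum. On the log2 scale, the differences were 0.40 (SE 0.103, adjusted p = 0.0202) and -0.42 (SE 0.0953, adjusted p = 0.00503), and the interaction was 0.83 (SE 0.14, adjusted p = 0.00122).

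Igsf21, a synaptic adhesion protein, also rose in cortex and fell in cerebellum. Cortical values ran from 63.8 to 80.9 CPM in WT (median 67.2) and from 78.1 to 84.7 CPM in Cic-S-KO (median 81.4). Cerebellar values ran from 70.96 to 84.99 CPM in WT (median 81.3) and from 54.2 to 77.00 CPM in Cic-S-KO (median 65.4). Here 4 of 7 Cic-S-KO samples were above the WT range in cortex and 5 of 7 below it in cerebellum, and the log2 differences were 0.23 and -0.26. The same direction was shared by Sh3glb2 (an endophilin of membrane curvature, 0.15 and -0.13), Tbkbp1 (an adaptor of the kinase TBK1, 0.16 and -0.18), Cyth1 (an activator of ARF GTPases, 0.14 and -0.17), Tyk2 (a Janus kinase, 0.32 and -0.22) and Abca7 (a lipid transporter, 0.22 and -0.23).

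Rora encodes a nuclear receptor that Purkinje cells need to mature. In cortex it ran from 111 to 134 CPM in WT (median 122) and from 92.5 to 117 CPM in Cic-S-KO (median 108). In cerebellum it ran from 473 to 609 CPM in WT (median 559.8) and from 531 to 698 CPM in Cic-S-KO (median 653). The groups overlapped, with 4 of 7 Cic-S-KO samples below the WT range in cortex and 4 of 7 above it in cerebellum. Fitted log2 differences were -0.19 (SE 0.0544, adjusted p = 0.0407) and 0.20 (SE 0.0534, adjusted p = 0.0216). Chn1, a Rac-inactivating protein of axon guidance, had log2 differences of -0.18 in cortex and 0.15 in cerebellum. Rora, Chn1 and Tyk2 overlap genes on the other strand, so their counts may be mixed.

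The interaction call of these 11 named genes held in all 30 leave-one-out fits, but their place in the class did not. Slc24a2, Tubb4a, Sh3glb2, Tbkbp1 and Igsf21 had opposite calls in 30 of 30 fits, Col27a1 in 27, Chn1 in 26, Cyth1 in 21, Abca7 in 20, Rora in 19 and Tyk2 in 12. With the effect of GC content removed, Slc24a2 and Chn1 kept opposite calls, and the other 9 passed in cerebellum only. Without both libraries numbered 6, Slc24a2, Tubb4a, Sh3glb2, Tbkbp1, Igsf21 and Col27a1 kept opposite calls, Chn1 and Tyk2 passed in cortex only, and Cyth1, Abca7 and Rora in cerebellum only.

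Among the 181 genes past the test in cortex only, 106 were higher and 75 lower in Cic-S-KO. Col5a3 (chromosome 9, 20770050 to 20815067), a chain of type V collagen, had the smallest interaction p of them. Cortical levels ran from 0.92 to 1.47 CPM in WT (median 1.07) and from 1.70 to 3.49 CPM in Cic-S-KO (median 2.36). In cerebellum, where it was more abundant, it ran from 5.74 to 9.21 CPM in WT (median 7.24) and from 5.29 to 7.14 CPM in Cic-S-KO (median 6.26). Every cortical Cic-S-KO sample exceeded every WT sample, and the cerebellar groups overlapped. The log2 differences were 1.06 (SE 0.146, adjusted p = 2.59e-05) in cortex and -0.21 (SE 0.119, adjusted p = 0.306) in cerebellum (95% interval -0.45 to 0.03), with an interaction of 1.27 (SE 0.189, adjusted p = 0.00033).

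Plxnb2, a receptor for class 4 semaphorins, ran in cortex from 65.2 to 75.3 CPM in WT (median 72.5) and from 79.1 to 87.8 CPM in Cic-S-KO (median 84.6). In cerebellum Plxnb2 ran from 179 to 204 CPM in WT (median 184) and from 164 to 191 CPM in Cic-S-KO (median 182). All 7 cortical Cic-S-KO samples were above the WT range, with a log2 difference of 0.24 (SE 0.0384, adjusted p = 0.000313) against -0.08 in cerebellum. Telo2, a cofactor that stabilises the large kinases of DNA damage and growth signalling, was also apart in cortex (0.29 and -0.13 in cerebellum). Zfyve28, a regulator of EGF receptor turnover, had log2 differences of 0.25 and -0.18, and its counts may include a gene on the other strand. It was cortex-only in 26 of 30 leave-one-out fits, had opposite calls under DESeq2, and passed in cerebellum only with GC content removed.

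Nbeal2, a BEACH domain protein of granule formation, had 0.45 (SE 0.0937, adjusted p = 0.00518) in cortex and -0.27 in cerebellum (adjusted p = 0.0697), and opposite calls under DESeq2 and with GC content removed. Among the named genes with a promoter window, it alone held one of the octamers TGAATGAA or TGAATGGA that Capicua is known to bind. The RefSeq window (GRCm38.p6, chr9:110654285-110654344, minus strand) is shown for that match, with the octamer in capitals starting 157 bases before the transcript start.
Nbeal2: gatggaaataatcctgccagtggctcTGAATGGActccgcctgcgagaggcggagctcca
On either strand, 1 of these octamers lay between 250 bases before and 50 bases after the start of 244 of 12009 tested genes with a window (2.03%), of 4 of 139 cortex-only genes (2.88%), of 1 of 200 cerebellum-only genes (0.5%), of 5 of 122 genes past neither region test (4.1%) and of 0 of 17 genes with opposite effects. A match is a description of these letters only.

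Of the 75 genes that were lower in cortex only, Scrg1, a small secreted protein named for its response to scrapie, changed by -0.51 (SE 0.0664, adjusted p = 1.07e-05). In cortex it ran from 14.6 to 19.6 CPM in WT (median 16.5) and from 10.4 to 13.1 CPM in Cic-S-KO (median 11.2). In cerebellum it ran from 18.8 to 22.7 CPM in WT (median 19.6) and from 16.8 to 22.6 CPM in Cic-S-KO (median 19.9). The cortical groups did not overlap, and the cerebellar 95% interval was -0.17 to 0.09.

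The adhesion gene Cdh12, a cadherin, ran in cortex from 21.1 to 32.9 CPM in WT (median 26.5) and from 18.04 to 24.2 CPM in Cic-S-KO (median 19.8). In cerebellum Cdh12 ran from 10.4 to 14.9 CPM in WT (median 11.5) and from 11.7 to 14.7 CPM in Cic-S-KO (median 13.2). In all, 6 of 7 cortical Cic-S-KO samples were below the WT range, and the log2 differences were -0.42 (SE 0.0828, adjusted p = 0.00317) and 0.17. Rnd1, a small GTPase that loosens actin bundles, had -0.28 in cortex and 0.10 in cerebellum. Samd4, an RNA-binding repressor of translation (-0.25 and 0.12), and Cap2, an actin regulator (-0.25 and 0.08), had the same pattern and overlap genes on the other strand.

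Genes past the test in cortex only differed in base composition by direction, and so did genes with opposite effects. For cortex-only genes, the median GC content was 56.5% over the 106 higher and 46.4% over the 75 lower, against 49.5% over all genes tested. For genes with opposite effects, it was 58.6% over the 10 higher in cortex and 45.8% over the 8 lower in cortex. With the effect of GC content removed from each library, 86 genes were cortex-only, 69 of them among the 181. Opposite calls were then held by 7 genes, 4 of them among the 18. In the same setting, 342 genes passed in cortex and 1249 in cerebellum. The part of GC content in these differences was not tested further. Col5a3, Plxnb2, Telo2, Scrg1, Cdh12, Rnd1, Samd4 and Cap2 were cortex-only in that setting, in all 30 leave-one-out fits and without both libraries numbered 6.

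Cortex samples also varied in markers of the neighbouring striatum. The summed level of 13 striatal neuron genes was 223.8 to 714.2 CPM in WT cortex (mean 409.7, SD 182). In Cic-S-KO cortex it was 231.9 to 856.6 CPM (mean 629.2, SD 244). Estimates were above 0 for 13 of the 13 in cortex, against 9243 of all 17430 genes, with a median log2 difference of 0.75. In cerebellum 11 of the 13 were above 0, and 0 of the 13 passed the test in either region. The part of striatal tissue in the cortical differences was not tested.

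Among the 270 genes past the test in cerebellum only, 138 were higher and 132 lower in Cic-S-KO. Robo2 (chromosome 16, 73891839 to 74411825), a receptor for Slit proteins that steers growing axons, had the smallest interaction p after Cic. Cortical levels ran from 163 to 179.8 CPM in WT (median 172) and from 149 to 173 CPM in Cic-S-KO (median 162). In cerebellum it ran from 39.2 to 49.2 CPM in WT (median 44.7) and from 51.03 to 63.6 CPM in Cic-S-KO (median 58.7). All 7 cerebellar Cic-S-KO samples were above the WT range, and cortical samples overlapped. Cic-S-KO and WT thus differed by log2 values of 0.39 (SE 0.0446, adjusted p = 1.53e-06) in cerebellum and -0.08 (SE 0.043, adjusted p = 0.305) in cortex, with an interaction of -0.47 (SE 0.062, adjusted p = 7.99e-05).

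Grin2b, the NMDA receptor subunit typical of forebrain and young neurons, ran in cortex from 653 to 855 CPM in WT (median 690.3) and from 600.5 to 675 CPM in Cic-S-KO (median 651). In cerebellum Grin2b ran from 34.5 to 40.6 CPM in WT (median 36.4) and from 38.6 to 62.3 CPM in Cic-S-KO (median 51.2). With 6 of 7 cerebellar Cic-S-KO samples above the WT range, the log2 difference was 0.43 (SE 0.072, adjusted p = 0.000365), against -0.17 in cortex (95% interval -0.31 to -0.03). Exons of Grin2b overlap short genes on the other strand.

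Igfbp6, a secreted binding protein for insulin-like growth factor, ran in cortex from 37.1 to 51.1 CPM in WT (median 43.7) and from 33.9 to 46.3 CPM in Cic-S-KO (median 37.5). In cerebellum Igfbp6 ran from 13.4 to 17.9 CPM in WT (median 15.4) and from 17.8 to 26.6 CPM in Cic-S-KO (median 24.2). On the log2 scale, the differences were 0.54 (SE 0.0886, adjusted p = 0.000272) in cerebellum and -0.18 in cortex, and 6 of 7 cerebellar Cic-S-KO samples were above the WT range. Fgd3, an activator of the GTPase CDC42, was apart in cerebellum (0.32 and -0.10 in cortex). So was Abr, a regulator of the GTPase Rac (0.22 and -0.02), which overlaps a gene on the other strand. Gabbr2, a subunit of the metabotropic GABA receptor, had 0.23 in cerebellum and -0.15 in cortex (adjusted p = 0.054), and opposite calls under RLE, DESeq2 and GC removal.

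The genes that were lower in cerebellum only included Kcnd2 (chromosome 6, 21215503 to 21729805), an A-type potassium channel that granule neurons use to delay firing. Its cerebellar level ran from 306 to 393 CPM in WT (median 332) and from 193 to 288 CPM in Cic-S-KO (median 244). Its cortical level ran from 114 to 135 CPM in WT (median 121) and from 116 to 133 CPM in Cic-S-KO (median 124). Every cerebellar Cic-S-KO sample was below every WT sample, and the cortical groups overlapped. Fitted log2 differences were -0.45 (SE 0.0648, adjusted p = 6.78e-05) in cerebellum and 0.03 in cortex (95% interval -0.11 to 0.16).

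Snx30, a sorting nexin of endosomes, ran in cerebellum from 113 to 126 CPM in WT (median 116) and from 81.97 to 95.7 CPM in Cic-S-KO (median 88.2). In cortex Snx30 ran from 69.7 to 80.2 CPM in WT (median 75.9) and from 66.5 to 82.3 CPM in Cic-S-KO (median 72.2). The cerebellar groups were apart, with a log2 difference of -0.40 (SE 0.0434, adjusted p = 4.69e-07) against -0.03 in cortex. Mas1, a receptor of the renin-angiotensin system, was low in cerebellum, where it ran from 0.771 to 1.92 CPM in WT (median 1.16) and from 0.329 to 0.853 CPM in Cic-S-KO (median 0.578). In cortex Mas1 ran from 18.4 to 25.1 CPM in WT (median 21.05) and from 16.8 to 25.1 CPM in Cic-S-KO (median 21.99). With 6 of 7 Cic-S-KO samples below the WT range, its log2 difference of -1.04 (SE 0.172, adjusted p = 0.000278) in cerebellum compares with 0.04 in cortex. The other named genes of this kind were Ccdc120 (-0.42 in cerebellum, groups apart, and 0.20 in cortex), Neurl1a, a ubiquitin ligase of synapses (-0.39 and 0.11), Phc2, a Polycomb subunit (-0.19 and 0.12), and Mmp17, a membrane-bound metalloproteinase (-0.45 and 0.09).

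Robo2, Grin2b, Igfbp6, Fgd3, Abr, Kcnd2, Snx30, Mas1, Ccdc120, Neurl1a and Mmp17 were cerebellum-only in all 30 leave-one-out fits, with GC content removed, and without both libraries numbered 6. Phc2 was cerebellum-only in 25 of the 30 and Gabbr2 in 24.

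Many of the genes that rose in cerebellum only had a higher WT level in cortex. The WT level was over 2-fold higher in cortex than in cerebellum for 61 of the 138 higher genes (44.2%), against 14.7% of all genes tested. Of the 132 lower genes, 43 (32.6%) were over 2-fold higher in WT cerebellum than in WT cortex, against 10.7% of all. These shares rest on the same WT samples as the interaction and are given without a test. Grin2b (WT cortex over cerebellum 4.29 on the log2 scale) and Robo2 (1.95) belong to the first set and Kcnd2 (-1.46) to the second. Mas1, which fell in cerebellum, was 4.11 higher in WT cortex.

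**Figure D3:**
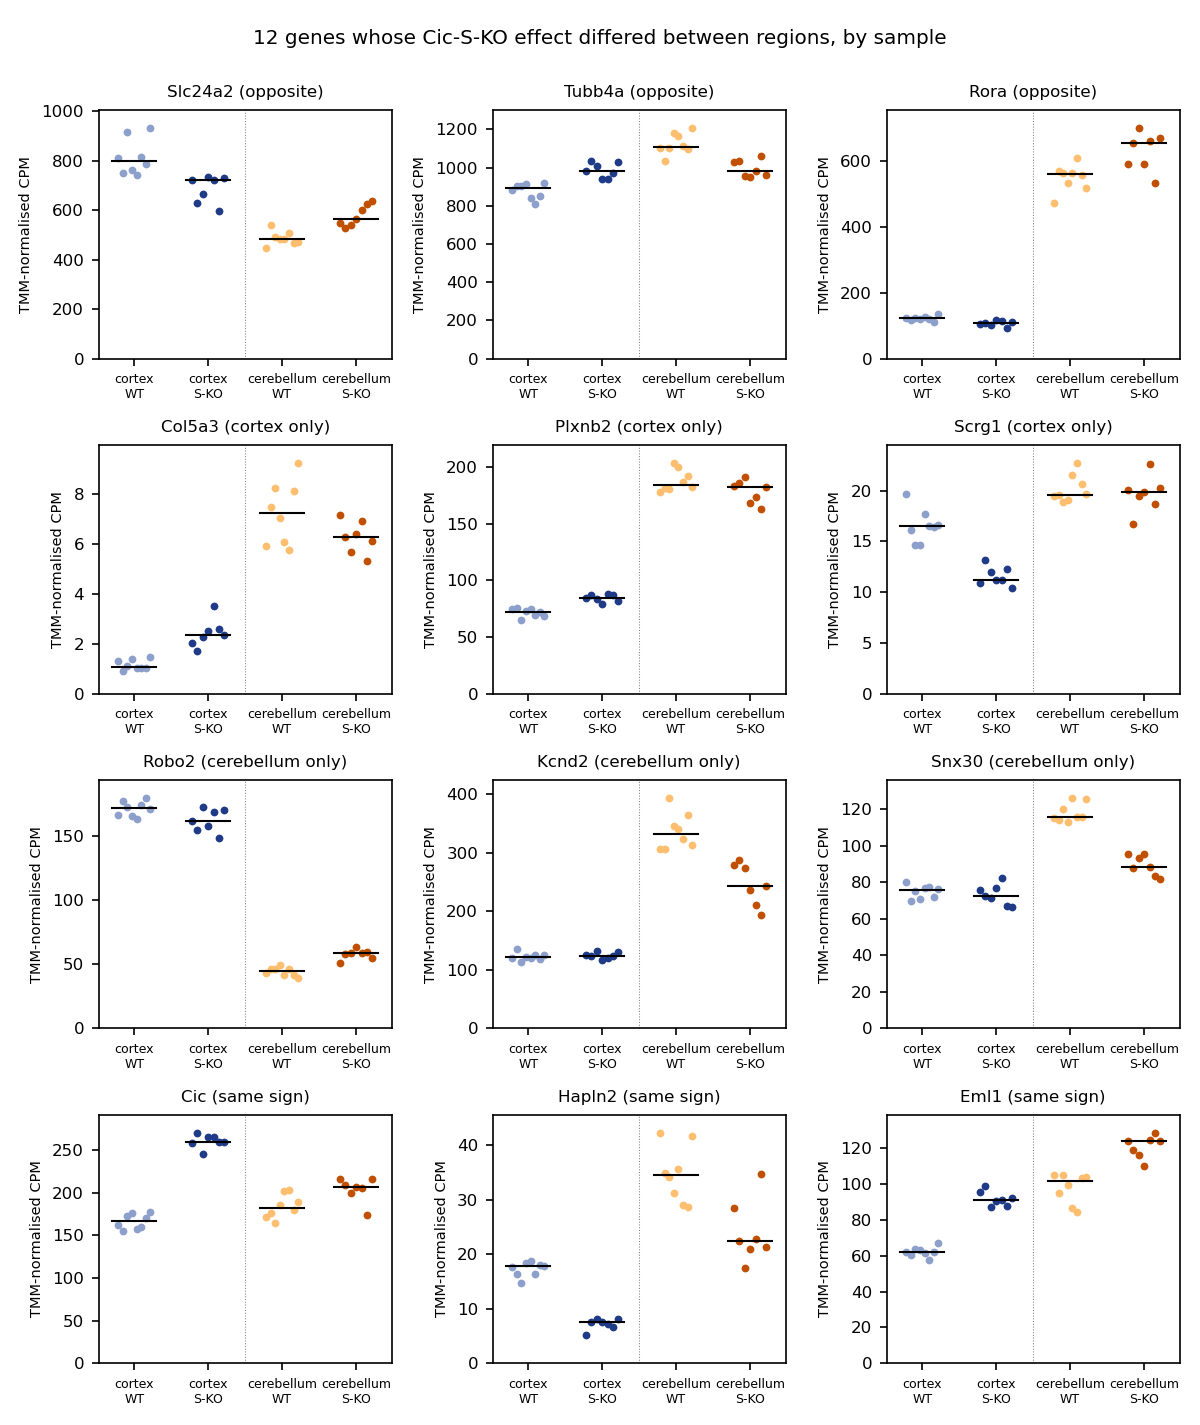
TMM-normalised CPM (y axis, starting at 0) of 12 genes in each of the 30 samples (points), grouped by region and genotype (x axis; S-KO is Cic-S-KO), with a bar at each group's median. The rows hold genes with opposite effects, in cortex only, in cerebellum only and with the same sign: Slc24a2 falls in cortex and rises in cerebellum, Col5a3 rises in cortex, Kcnd2 falls in cerebellum, and Cic rises by more in cortex.

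Only 4 genes passed in both regions with the same sign and a different size: Cic, Hapln2, Dusp15 and Eml1. Hapln2, the link protein that anchors matrix at nodes of Ranvier, ran in cortex from 14.8 to 18.8 CPM in WT (median 17.8) and from 5.15 to 8.08 CPM in Cic-S-KO (median 7.49). In cerebellum Hapln2 ran from 28.6 to 42.2 CPM in WT (median 34.6) and from 17.5 to 34.7 CPM in Cic-S-KO (median 22.5). All 7 cortical Cic-S-KO samples and 6 of 7 cerebellar ones were below the WT range. The log2 differences were -1.27 (SE 0.12, adjusted p = 4.33e-08) and -0.53 (SE 0.108, adjusted p = 0.00253), and the interaction was -0.74 (SE 0.16, adjusted p = 0.00885).

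Dusp15, a phosphatase of oligodendrocytes, ran in cortex from 12.3 to 21.1 CPM in WT (median 16.8) and from 25.5 to 32.5 CPM in Cic-S-KO (median 28.1). In cerebellum Dusp15 ran from 22.3 to 32.8 CPM in WT (median 27.7) and from 29.7 to 37.4 CPM in Cic-S-KO (median 33.9). The cortical groups were apart and the cerebellar ones overlapped, with log2 differences of 0.78 (SE 0.0838, adjusted p = 1.84e-07) and 0.29 (SE 0.0815, adjusted p = 0.0241). Without both libraries numbered 6, Dusp15 passed in cortex only. Eml1, a microtubule-binding protein, ran in cortex from 57.6 to 67.1 CPM in WT (median 62.2) and from 86.98 to 98.7 CPM in Cic-S-KO (median 91.2). In cerebellum Eml1 ran from 84.2 to 105 CPM in WT (median 101) and from 109.9 to 128 CPM in Cic-S-KO (median 124). Both pairs of groups were apart, and the log2 differences were 0.56 (SE 0.0451, adjusted p = 2.43e-10) and 0.30 (SE 0.0445, adjusted p = 6.78e-05), although Eml1 overlaps a gene on the other strand.

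Gene lists of cell types and pathways were read against 3.69% of genes past the interaction test and all-gene medians of 0.01 in cortex and 0.00 in cerebellum. Of all genes, 2.48% rose and 1.77% fell in cortex, and 3.56% rose and 3.38% fell in cerebellum. Estimates were above 0 for 9243 of the 17430 genes in cortex and for 8857 in cerebellum. Granule neuron genes were lower in cerebellum: 9 of 20 fell, 0 rose, and the median log2 difference was -0.29. In cortex 1 of the 20 rose (Zic1), 1 fell (Rims3), and the median was 0.02. The 9 were Chn2, Gabrd, Slc17a7, Grin2c, Grm4, Neurod1, Cadps2, Cbln3 and Gabra6, and 3 of the 20 passed the interaction test, all more positive in cortex. In bulk tissue, fewer cells of a type and less RNA per cell cannot be told apart.

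Gabrd encodes the delta subunit of extrasynaptic GABA receptors that set the tonic inhibition of granule neurons. In cerebellum it ran from 126 to 172 CPM in WT (median 146) and from 80.5 to 121 CPM in Cic-S-KO (median 118). In cortex it ran from 55.8 to 67.01 CPM in WT (median 63.4) and from 59.5 to 71.7 CPM in Cic-S-KO (median 66.5). All 7 cerebellar Cic-S-KO samples were below the WT range, with replicate 6 the lowest, and the log2 differences were -0.43 (SE 0.0725, adjusted p = 0.000448) in cerebellum and 0.07 in cortex. Chn2, a Rac-inactivating protein, ran in cerebellum from 496 to 659 CPM in WT (median 565) and from 299 to 511 CPM in Cic-S-KO (median 415). In cortex Chn2 ran from 32.1 to 42.7 CPM in WT (median 38.1) and from 37.99 to 43.8 CPM in Cic-S-KO (median 42.1). With 6 of 7 cerebellar samples below the WT range, it had -0.42 (SE 0.0775, adjusted p = 0.00099) in cerebellum and 0.13 in cortex, and it overlaps genes on the other strand. Slc17a7, the vesicular glutamate transporter, had -0.28 and 0.00, and its interaction (adjusted p = 0.0366) held in 17 of 30 leave-one-out fits and not under RLE. The granule-specific receptor subunit Gabra6 had -0.42 in cerebellum and the adhesion regulator Cbln3 -0.37, and both are barely expressed in cortex.

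The summed level of the 20 granule neuron genes in cerebellum was 12190 ± 920 CPM in WT (SD, n = 8; 10490 to 13430) and 10600 ± 1250 CPM in Cic-S-KO (SD, n = 7; 8242 to 11720). The ranges overlapped, and the lowest value was that of replicate 6. Without both libraries numbered 6, 8 of the 20 genes fell in cerebellum, 2 passed the interaction test, and the median cerebellar difference was -0.25.

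Purkinje cell genes went the other way in cerebellum. Of 22 tested, 7 rose, among them Rora, Itpr1, Kcna6, Sycp1, Th and Atp2a3, and 0 fell, with a median of 0.17, while in cortex 2 fell, 0 rose, and the median was -0.03. The interaction test was passed by 5, among them Rora, Itpr1, Kcna6 and Aldoc, all more negative in cortex. Itpr1, the calcium release channel that Purkinje cells hold in large amounts, ran in cerebellum from 3626 to 5315 CPM in WT (median 4973) and from 5121 to 6787 CPM in Cic-S-KO (median 5768). In cortex Itpr1 ran from 796 to 1027 CPM in WT (median 888) and from 658 to 881 CPM in Cic-S-KO (median 814). In cerebellum 6 of 7 Cic-S-KO samples were above the WT range, and WT replicate 1 lay well under the rest. This gave log2 differences of 0.31 (SE 0.0738, adjusted p = 0.0097) and -0.17 (SE 0.0741, adjusted p = 0.189), and Itpr1 overlaps short genes on the other strand. A cerebellar median above 0 was not particular to Purkinje genes. Of the cell type lists, that of granule neurons alone had a cerebellar median below 0. The median was 0.25 for thalamus and midbrain, 0.23 for cortical inhibitory, 0.20 for cortical excitatory and 0.16 for oligodendrocyte precursor genes.

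Not every defining Purkinje gene passed the test. The Purkinje marker Pcp2 had 0.17 in cerebellum (adjusted p = 0.159) and the calcium buffer Calb1 0.16 (adjusted p = 0.107). Th, the first enzyme of catecholamine synthesis and present in some Purkinje cells, rose by 1.27 with an adjusted p of 6.78e-05. The interaction of Aldoc, a glycolytic enzyme of Purkinje stripes and astrocytes, had an adjusted p of 0.037, of 0.0563 with a replicate block, and held in 19 of 30 leave-one-out fits. Kcna6, a potassium channel that overlaps a gene on the other strand, lost its interaction call without cortical Cic-S-KO replicate 6 (adjusted p = 0.0561). The summed level of 22 Purkinje genes in cerebellum was 14600 ± 1320 CPM in WT (SD, n = 8) and 16670 ± 1260 CPM in Cic-S-KO (SD, n = 7). It was lowest in WT replicate 1 at 11860 CPM, and in Cic-S-KO replicate 6 it was 14500 CPM. Without both libraries numbered 6, 8 of the 22 genes rose in cerebellum and 3 passed the interaction test.

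Some genes of other cerebellar neurons rose as well. Of 11 genes of molecular layer interneurons, Golgi cells and unipolar brush cells, 4 rose in cerebellum (Kit, Nxph1, Cdh22 and Sorcs3), 0 fell, and 3 passed the interaction test, all more negative in cortex (Pvalb, Kit and Nxph1). Kit, the receptor of stem cell factor on molecular layer interneurons, ran in cerebellum from 248 to 306 CPM in WT (median 294) and from 316 to 483 CPM in Cic-S-KO (median 342). In cortex Kit ran from 51.99 to 68.4 CPM in WT (median 55.4) and from 49.5 to 59.2 CPM in Cic-S-KO (median 51.6). The cerebellar groups were apart, and the log2 differences were 0.37 (SE 0.0734, adjusted p = 0.00211) and -0.12. Pvalb, a calcium buffer of fast-spiking cells, had -0.27 in cortex and 0.22 in cerebellum (adjusted p = 0.066). It was cortex-only in 20 of 30 leave-one-out fits and had opposite calls under DESeq2. With GC content removed, and without both libraries numbered 6, Pvalb passed the interaction test but neither region test. Nxph1, a neurexin ligand, lost its interaction call without both libraries numbered 6.

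Markers of other cells and of neighbouring regions were measured in the same cerebella. Estimates were above 0 in cerebellum for 16 of 16 microglial genes (median 0.18), 12 of 14 endothelial genes (median 0.22) and 11 of 11 meningeal fibroblast genes (median 0.30), of which 1, 2 and 2 passed the test. The summed hindbrain list was 90.39 to 282.4 CPM in WT and 95.39 to 384.4 CPM in Cic-S-KO, and the choroid plexus list was 41.84 to 3045 CPM and 150.9 to 4143 CPM. Both maxima of Cic-S-KO were those of replicate 6, and 0 genes of either list passed a test. Hoxb2 and Hoxb6 of the hindbrain list were under 0.1 CPM on average over the 30 samples. The part of these cells in the granule and Purkinje differences was not tested beyond leaving out replicate 6.

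**Figure D4:**
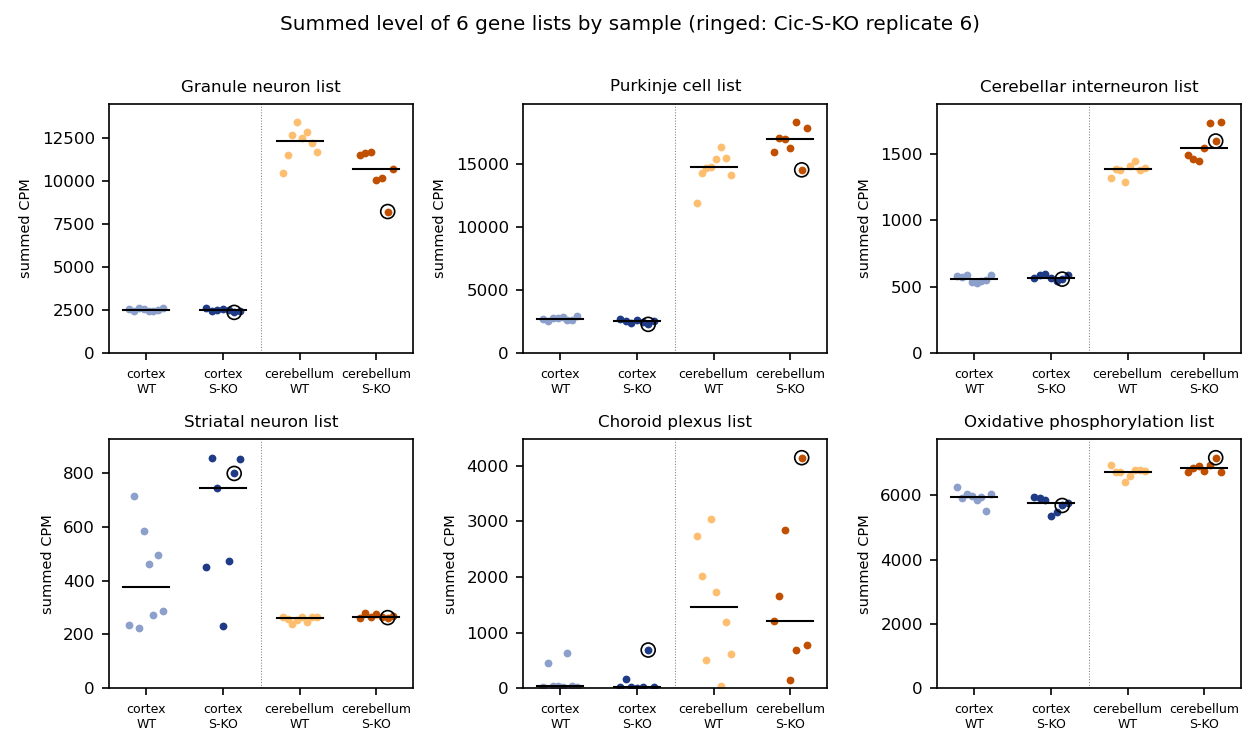
Summed CPM (y axis, starting at 0) of 6 gene lists in each of the 30 samples (points) by region and genotype (x axis; S-KO is Cic-S-KO), with a bar at the median and a ring around Cic-S-KO replicate 6. In cerebellum the granule neuron sum is lower in most Cic-S-KO samples, down to 8242 CPM in the ringed one. The Purkinje and interneuron sums are higher on average, with overlapping ranges. The ringed Purkinje sum of 14500 CPM lies within the WT range of 11860 to 16340 CPM.

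Most receptor genes that passed a region test did so in cerebellum. Of 39 glutamate and GABA receptor subunits, 9 rose and 7 fell in cerebellum, and 1 rose and 1 fell in cortex. The interaction test was passed by 8, 3 more positive in cortex (Gabrd, Grik2 and Grik5) and 5 more negative (Grin2b, Gabbr2, Grik3 and Gabbr1 among them). Grik3, a kainate receptor subunit, had 0.37 in cerebellum, where the groups were apart, and -0.12 in cortex. Gabbr1, the partner of Gabbr2, had 0.18 and 0.00. Grik2, another kainate subunit, had -0.22 and 0.15, and lost its interaction call without both libraries numbered 6. That setting left 9 rises and 4 falls in cerebellum, and 1 positive and 6 negative interactions.

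Of 50 voltage-gated channels and sodium/calcium exchangers, 4 rose and 9 fell in cerebellum, 1 rose and 2 fell in cortex, and 8 passed the interaction test, 3 positive and 5 negative. Besides Slc24a2, Kcnd2 and Kcna6, they included Slc24a3, a second exchanger of that family (0.23 in cerebellum and -0.18 in cortex), Cacna1i, a low-threshold calcium channel (-0.32 and 0.04), Kcnt1, a sodium-activated potassium channel (-0.15 and 0.23), and Kcnma1, a calcium-activated potassium channel (0.16 and -0.13). Cacna1i lost its interaction call when GC content was removed, and Kcnt1 lost it without cortical Cic-S-KO replicate 6 (adjusted p = 0.0515). Fgf14, an ataxia gene whose product binds sodium channels, had -0.45 in cerebellum and -0.03 in cortex, and overlaps a gene on the other strand.

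Of 36 nuclear genes of oxidative phosphorylation, 5 fell in cortex (Cox7b, Cox6c, Ndufv2, Atp5c1 and Uqcrfs1), 0 rose, and 0 passed in cerebellum. Estimates were positive for 3 of the 36 in cortex and for 28 in cerebellum, with medians of -0.07 and 0.03. The interaction was more negative in cortex for 4 (Cox7b, Cox6c, Ndufv2 and Ndufa4). Cox7b, a subunit of cytochrome oxidase, ran in cortex from 70.98 to 90.8 CPM in WT (median 83.1) and from 69.00 to 79.5 CPM in Cic-S-KO (median 72.9). In cerebellum Cox7b ran from 73.6 to 84.6 CPM in WT (median 81.2) and from 79.2 to 94.1 CPM in Cic-S-KO (median 88.6). The groups overlapped in both regions, with log2 differences of -0.19 (SE 0.0462, adjusted p = 0.0179) and 0.10 (SE 0.0459, adjusted p = 0.18). Cox6c shares exons with Vps13b on the other strand. Ndufa4 had an interaction adjusted p of 0.0373, of 0.0575 with a replicate block, and held in 16 of 30 leave-one-out fits. Without both libraries numbered 6, 1 of the 36 fell in cortex and 2 passed the interaction test, and with GC content removed 2 fell and 5 passed. Of the 13 messenger RNAs of the mitochondrial genome, 0 passed in either region and 1 passed the interaction test (mt-Co3, in 16 of 30 leave-one-out fits). Their estimates were above 0 for 0 of 13 in cortex (median -0.07) and 12 of 13 in cerebellum (median 0.06), the same directions as most of the 36 nuclear genes. Their summed level was 44530 to 52590 CPM in WT and 39680 to 50500 CPM in Cic-S-KO cortex, and 35380 to 45900 CPM in WT and 40670 to 45890 CPM in Cic-S-KO cerebellum. The part of mitochondrial RNA content in these differences was not tested.

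**Figure D5:**
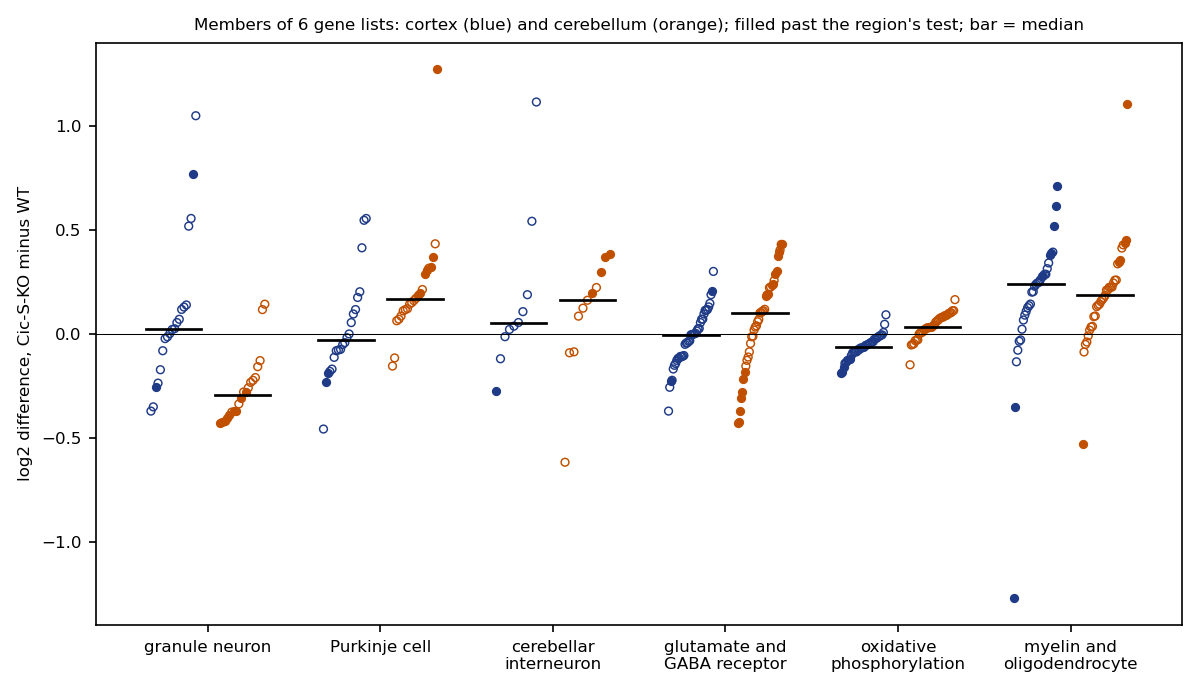
Log2 difference between Cic-S-KO and WT (y axis) for the tested members of 6 gene lists (x axis), in cortex (blue) and cerebellum (orange), with filled points past the region's test, open points not, and a bar at the median; 3 values lie outside the axis. Most granule neuron genes sit below 0 in cerebellum (median -0.29), most Purkinje genes above it (median 0.17), and most myelin genes are above 0 in both regions.

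Of 33 myelin and oligodendrocyte genes, 7 rose and 2 fell in cortex, 5 rose and 1 fell in cerebellum, the medians were 0.24 and 0.18, and Hapln2 alone passed the interaction test. Of 29 collagens and brain matrix genes, 8 rose and 1 fell in cortex, and 3 rose and 2 fell in cerebellum. The interaction was positive for 3 (Col5a3, Col27a1 and Col5a1) and negative for 2 (Hapln2 and Hapln4). Col5a1, a second type V collagen chain that overlaps genes on the other strand, had 0.66 in cortex and -0.07 in cerebellum, with an interaction adjusted p of 0.0493 that was 0.081 with a replicate block and held in 6 of 30 leave-one-out fits. Hapln4, a link protein of perineuronal nets, held in 22.

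Of 15 neurotrophins and receptors, 4 passed the interaction test. Sort1, a sorting receptor that binds pro-neurotrophins, had 0.16 in cerebellum, where the groups were apart, and -0.07 in cortex, and it overlaps a gene on the other strand. Gfra2, the neurturin receptor, had -0.26 in cortex and 0.17 in cerebellum. Ntrk2, the receptor of BDNF, had -0.18 in cortex and 0.03 in cerebellum and lost its call without both libraries numbered 6. Ntrk3 held its call in 10 of 30 leave-one-out fits.

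Npy, a peptide of cortical interneurons, ran in cerebellum from 6.18 to 9.81 CPM in WT (median 8.15) and from 9.09 to 14.7 CPM in Cic-S-KO (median 10.2). In cortex Npy ran from 55.2 to 70.9 CPM in WT (median 62.1) and from 46.1 to 61.6 CPM in Cic-S-KO (median 52.96). In each region 5 of 7 Cic-S-KO samples lay outside the WT range, above it in cerebellum and below it in cortex. Cic-S-KO and WT thus differed by log2 values of 0.45 (SE 0.0996, adjusted p = 0.00458) in cerebellum and -0.24 (SE 0.087, adjusted p = 0.105) in cortex, and DESeq2 called both. Of 25 genes of cortical excitatory layers, 4 passed the interaction test: Ccn2, Rorb and Mef2c, more negative in cortex, and Slc17a7, more positive. Without both libraries numbered 6, Ccn2 and Slc17a7 did not pass, and Mef2c held in 19 of 30 leave-one-out fits. Dcn, a proteoglycan of meningeal fibroblasts, had 0.64 in cerebellum, where the groups were apart, and -0.25 in cortex. S100b, an astrocyte protein, had 0.28 and -0.02, with an interaction adjusted p of 0.037 that was 0.0622 with a replicate block. It held in 17 of 30 leave-one-out fits, and neither with GC content removed nor without both libraries numbered 6.

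No gene passed the interaction test in the lists of oligodendrocyte precursors (13 tested), Bergmann glia (8), microglia (16), endothelium (14), mural cells (8), choroid plexus (9), red blood cells (5), striatum (13), hippocampus (10), hindbrain (10), catecholamine handling (12), immediate early genes (19), glucocorticoid response (13), the circadian clock (15), cholesterol (20), MHC class I (12) or the FMRP family (7).

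Lung samples at P6, another tissue, age and batch, were not part of the interaction. Cic-S-KO against WT passed the test there for 2105 of 14721 genes also tested in brain (14.3%). The share was 12% of the cortex-only genes (20 of 166) and 16.3% of the cerebellum-only genes (37 of 227), near that background. Among the 17 genes with opposite effects that were tested in lung, 2 passed.

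Cic-L-KO brains shared the WT samples with this comparison, so their values are set side by side only. Slc24a2 had log2 differences of -0.48 in cortex and 0.34 in cerebellum of Cic-L-KO mice. Col5a3 had 0.97 and -0.08 there. Tubb4a had -0.24 and -0.02, and Npy 0.80 and -1.55.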

How the data were processed

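Per the labels' protocols, total RNA was isolated from flash-frozen tissue with the miRNeasy kit and libraries were made with polyA selection. STAR 2.7 and GRCm38.p6 are named in the submitters' processing notes. The counting program, annotation and strand setting are not given in the sources used here. The authors deposited raw read counts per gene, with no normalisation, and 0 columns lacked a sample. Genes of chromosome 1 and some genes of chromosomes 17, 18 and 19 were not analysed here, so counts over all genes and gene lists do not cover them (585 of 622 listed genes had counts and 568 were tested). IDs were named from GENCODE M21 on GRCm38 (50725 of 50789 matched, ignoring versions). The members and gene lists were chosen with earlier results of these data known.

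The counts of the 30 samples were filtered for low values with filterByExpr, scaled by TMM and fitted with edgeR 4.0.16 in R 4.3.3 (robust quasi-likelihood test, 1 coefficient per region and genotype, Benjamini-Hochberg adjustment over 17430 genes, threshold 0.05). Log2 differences are from that fit, and SE values from its quasi-likelihood F statistic. CPM values are unlogged and TMM-normalised. Library totals averaged 25456072 ± 2925283 reads (SD), and low genes were the least precise. On simulated counts with 200 of 17155 genes changed 2-fold in Cic-S-KO cortex alone, the interaction test recovered 187 and 1.58% of the 190 calls were false. The changed genes had a mean of at least 50 counts, and samples were drawn independently. Changes as small as those reported, with a median absolute interaction of 0.353, were not simulated, so these shares do not apply to them.

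Replicate numbers may pair the samples: deviations of same-numbered cortex and cerebellum samples of a genotype correlated at 0.165 to 0.395 (15 pairs, 12015 genes). Of the 15 cortex samples, 12 correlated best with the cerebellum sample of their own number. The interaction was therefore also fitted with genotype and number together as a block. The region tests were refitted with the number alone as a block, shared by WT and Cic-S-KO. No 2 samples of a group agreed within sampling noise (98 pairs, lowest chi-square per degree of freedom 4.44). Alternatives were RLE scaling, DESeq2 1.42.0, other filters, a minimum log2 difference of 0.5, adjustment for GC content or exon length in 20 bins, Y-linked expression, all 46 brain samples, and leaving out each library.

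Named genes were Cic, Atxn1 and Atxn1l, then protein-coding genes past the interaction test whose mean log2 CPM was 1 or more: by smallest p, 10 with opposite effects, 6 higher and 6 lower in cortex only, 6 higher and 6 lower in cerebellum only, and 4 with the same sign, and up to 6 list members per list past the test. Other list members are named after their values were seen, and a few genes that the rule selects are not reported here.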

Additional observations from a re-analysis of the deposited data

Results flagged for a closer look

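By the interaction term, 644 genes had unlike Cic-S-KO effects in the 2 brain regions. Among the named ones, the effects had opposite signs and passed in both regions for Col27a1 (interaction 0.83), Tyk2 (0.54), Igsf21 (0.49), Abca7 (0.45), Tubb4a (0.34), Tbkbp1 (0.34), Cyth1 (0.30) and Sh3glb2 (0.29), all more positive in cortex. They had the reverse signs for Slc24a2 (-0.50), Rora (-0.38) and Chn1 (-0.33). With GC content removed, only Slc24a2 and Chn1 of these genes kept opposite calls. Across the genes, opposite calls held in 12 (Tyk2) to 30 of the 30 leave-one-out fits.

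In 6 of 132 groups of samples, over 28 genes and 5 list sums, 1 sample lay further from the others than Dixon's 95% value allows, and chance gives about 1 in 20 such groups. Cerebellar Cic-S-KO replicate 6 had 174.4 CPM of Cic, where the nearest sample had 200.2, and 80.52 CPM of Gabrd, where the nearest had 107.1. Cortical Cic-S-KO replicate 6 had 687.8 CPM of the choroid plexus list, against 172.7 in the nearest. Cortical Cic-S-KO replicate 4 had 24.18 CPM of Cdh12, against 20.28. Cerebellar WT replicate 8 had 1.917 CPM of Mas1, against 1.313. Cerebellar WT replicate 1 had 3626 CPM of Itpr1, against 4568.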

How the results depend on the processing

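With genotype and replicate number together as a block, 677 genes passed the interaction test (525 of the 644). That block ended the interaction call of Aldoc, S100b, Ndufa4 and Col5a1 and of no other named gene. The region tests came from another fit, with 724 genes past in cortex and 1058 in cerebellum. Its block was the number alone, shared by WT and Cic-S-KO samples, which are different animals. DESeq2 gave 1047 interaction calls, 1297 in cortex, 46 opposite, 346 cortex-only and 430 cerebellum-only genes. No filter on low counts gave 394, 483 in cortex, 10 opposite, 97 cortex-only and 174 cerebellum-only. A mean of at least 50 counts gave 29 opposite genes. A log2 difference of at least 0.5 gave 151, 128 in cortex, 156 in cerebellum, 0 opposite, 21 cortex-only, 30 cerebellum-only and 1 same-sign gene. Removing GC content gave 342 in cortex, 7 opposite and 86 cortex-only genes. Without both Cic-S-KO libraries numbered 6 (chosen after seeing the data) there were 258 interaction calls, 367 in cortex, 792 in cerebellum, 7 opposite, 58 cortex-only and 147 cerebellum-only genes. In that setting 17 of the 75 named genes past the interaction test lost the call. The causes were not tested. Leaving out 1 library gave 334 (cortical Cic-S-KO 6) to 832 (cortical Cic-S-KO 1) interaction calls. It gave 326 to 1062 in cortex (the same libraries) and 782 (cerebellar Cic-S-KO 6) to 1718 (cerebellar WT 1) in cerebellum. The classes held 7 (cortical Cic-S-KO 7) to 28 (cortical Cic-S-KO 1) opposite, 59 to 300 cortex-only (cortical Cic-S-KO 6 and 1), 178 to 399 cerebellum-only (cerebellar Cic-S-KO 6 and WT 1) and 3 to 5 same-sign genes. Of 75 named genes past the interaction test, 61 kept the call and 42 the class in all 30 such fits, and none reversed in any setting run. Depth limits genes of few counts, and 7 or 8 samples per group limit small differences.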
